A study of Mus musculus with 12 samples.

Results

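The genes described here are 10 targets and feedback regulators of canonical Wnt signaling, namely Axin2, Lef1, Tcf7, Tcf7l1, Nkd1, Sp5, Notum, Lgr5, Rnf43 and Znrf3. They are a list of names with no threshold on their values, and were taken from the 55401 genes in the count files. All 10 were present and all 10 passed the filter on low counts, Lgr5 only through TPS lines. Bulk RNA-seq of 3 lines of mouse totipotent potential stem (TPS) cells and 3 lines of mouse extended pluripotent stem (EPS) cells gave 12 libraries, 2 technical replicates per line, with 13676051 to 21821707 counts each. TPS cells are totipotent-like stem cells that the study obtained by chemical treatment, and EPS cells are pluripotent stem cells with a widened developmental potential. TPS cells were grown in a medium named VCED in the labels. The study's methods describe TPS culture in the CPEC condition, taken here to be the same medium: a GSK3 inhibitor with EPZ004777 against DOT1L, VPA against histone deacetylases, and CD1530 as an agonist of RARγ. EPS cells were grown in LCDM medium, which is also known to contain a GSK3 inhibitor, so the comparison is not one of cells with and without such a compound. Both kinds of cells were grown on feeder cells, which the study's methods describe as inactivated mouse embryonic fibroblasts. The study derives TPS cells by converting EPS or ES cells or directly out of 2-cell embryos, and the origin of these 3 TPS lines is not given in the sources used here. No genotype, sex or passage number was given for the lines, and the labels do not say whether a TPS line and an EPS line with the same number are related.

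In canonical Wnt signaling, a Wnt ligand binds a Frizzled receptor and an LRP5 or LRP6 coreceptor and so stops GSK3 and its destruction complex from marking beta-catenin for degradation. Stabilised beta-catenin enters the nucleus and acts there with DNA-binding TCF/LEF proteins, and a GSK3 inhibitor gives the same stabilisation without a ligand. Many of the target genes encode proteins that turn the pathway down again, at the cell surface, in the cytoplasm or in the nucleus. In mouse embryonic stem cells the pathway is known for supporting self-renewal, in large part by relieving repression by TCF7L1.

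Genes of the 2-cell embryo separated the groups as the labels do, and RNA of fibroblast markers was present in both groups. The 6 genes of a 2-cell marker list summed to 168 to 217 CPM (counts scaled to library size with edgeR's TMM factors) in TPS lines and to at most 0.0979 CPM in EPS lines, with Zscan4c at 72.7 to 106.005 CPM and Gm8300 at 16.2 to 18.3 CPM in TPS lines. All 6 genes of a pluripotency list were detected in every line of both groups, with sums of 1613 to 1938 CPM in TPS lines and 3147 to 3974 CPM in EPS lines. Of 16 fibroblast markers, 11 were higher in TPS lines and none lower (14.4% and 7.34% over all genes), and 13 had every TPS line above every EPS line, as did 23.6% of all genes. Without EPS line 2 or TPS line 1 the count higher was 3, without TPS line 3 it was 5, without EPS line 3 it was 7, and without EPS line 1 or TPS line 2 it was 8 and 12. Their sum was 3532 to 6398 CPM in TPS lines and 331 to 1413 CPM in EPS lines, and no marker was at 0 in a whole group. Col1a1 was the most abundant of them in TPS lines, with 2363, 1740 and 1386 CPM in their lines 1 to 3, while EPS lines had 79.4, 433 and 378 CPM. Twist2 was at 3.47 to 19.3 CPM in TPS and 0.424 to 1.99 CPM in EPS lines, and Fap at 1.68 to 4.92 CPM and at most 0.313 CPM. The part of this RNA in the results below was not tested. TPS line 2 stood apart in the keratins Krt8, at 243 CPM, and Krt18, at 198 CPM, the other lines staying at or below 32.8 CPM and 26.5 CPM, so values of the 10 genes that rest on this line are also given without it. In bulk RNA, fewer cells that express a gene and less of its RNA per cell cannot be told apart.

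Canonical targets are recognised by TCF/LEF proteins through sites with the core CAAAG. Promoter sequences from RefSeq (build GRCm38.p6) were at hand for 7 of the 10 genes, and the 250 bases before each start were searched on both strands for CAAAG and for the longer ATCAAAG, of which CAAAG is the end. The sequences of 3 genes are shown, a target whose group means were close (Sp5), the most widely used reporter gene of the pathway (Axin2) and a gene that was higher in TPS lines (Nkd1). Capitals mark CAAAG or its reverse complement CTTTG, each sequence runs 5′ to 3′ along the gene's strand, and all 3 genes are on the plus strand. The Sp5 window is chr2:70474673-70474922, the Axin2 window chr11:108920099-108920348 and the Nkd1 window chr8:88527383-88527632, which lies before a RefSeq start inside the longer GENCODE gene.
Sp5: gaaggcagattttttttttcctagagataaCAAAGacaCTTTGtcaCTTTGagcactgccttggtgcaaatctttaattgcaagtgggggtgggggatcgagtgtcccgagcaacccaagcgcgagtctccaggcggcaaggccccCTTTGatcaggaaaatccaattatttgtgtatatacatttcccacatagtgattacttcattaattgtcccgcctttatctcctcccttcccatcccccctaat
Axin2: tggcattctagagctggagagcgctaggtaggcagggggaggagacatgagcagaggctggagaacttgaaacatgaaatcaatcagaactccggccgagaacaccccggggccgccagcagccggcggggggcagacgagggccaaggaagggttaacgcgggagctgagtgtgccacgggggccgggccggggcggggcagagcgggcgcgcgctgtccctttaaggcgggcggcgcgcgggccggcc
Nkd1: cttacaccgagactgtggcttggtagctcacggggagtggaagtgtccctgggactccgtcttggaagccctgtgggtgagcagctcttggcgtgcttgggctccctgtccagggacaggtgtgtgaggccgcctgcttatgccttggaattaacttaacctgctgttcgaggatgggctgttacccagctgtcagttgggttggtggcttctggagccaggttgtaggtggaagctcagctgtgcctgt

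The Sp5 window held 4 copies of CAAAG, a number reached by 0.773% of the 32851 promoter windows, and 1 copy of ATCAAAG, which 3.21% of windows hold. The Axin2 and Nkd1 windows held neither. Among the other windows, Lef1 had 4 starts with 1, 2, 1 and 3 copies of CAAAG, Tcf7l1 had 1 copy, and Tcf7 and Rnf43, each with 2 starts, had none, where 48.6% of all windows hold at least 1. These motifs were chosen after the expression values were known. A match describes letters, not a bound site, and windows without a match say nothing on sites elsewhere.

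TPS lines were compared with EPS lines to see which Wnt target and feedback genes differed between the TPS and EPS conditions. In edgeR's quasi-likelihood test at an adjusted p under 0.05, 3 of the 10 passed as higher in TPS lines and 0 as lower. The genes that rose were Tcf7l1, Nkd1 and Lgr5. Over all 17468 genes tested, 21.7% passed, 14.4% as higher and 7.34% as lower, and the count of 3 in 10 is read against these shares and gives no result about the genes as a group. Of the other members, 7 did not pass the test, among them the general readouts Axin2, Lef1, Sp5 and Znrf3. At an unadjusted p under 0.05, 5 of the 10 genes passed, with Notum and Rnf43 added as lower, where 37.0% of all genes did. DESeq2 called 4 of the 10 genes and 28.8% of all genes. The median log2 fold change of the 10 genes was 0.10, also with Lgr5 at its lower bound, against -0.0038 over all genes tested. All 3 TPS lines lay above all 3 EPS lines for the 3 called genes and below them for Notum and Rnf43, which over all genes tested was so for 23.6% and 19.1%. The labels call the samples lines, and p-values measure the spread between these 3 and 3 lines.

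**Figure D1:**
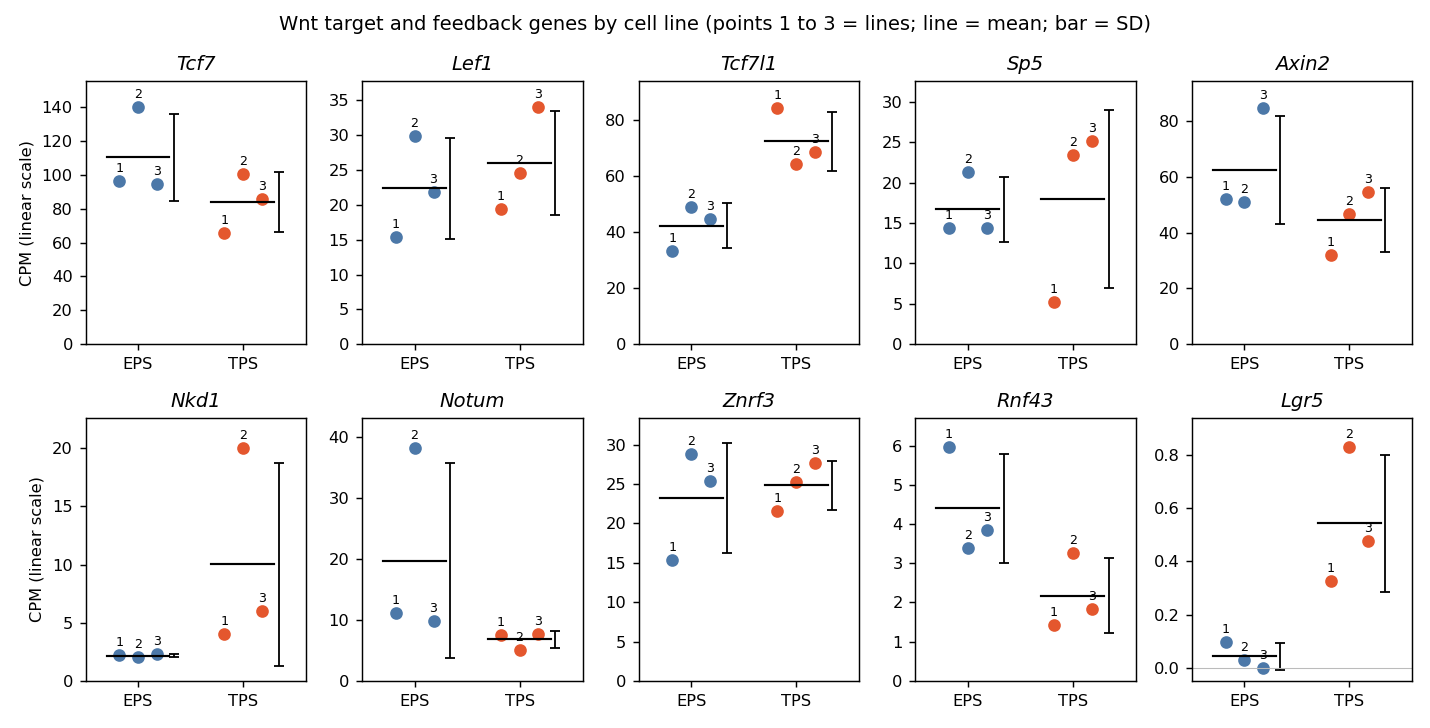
Level of each of the 10 genes in CPM (linear axis, own scale per gene) in EPS lines (blue) and TPS lines (red), with points numbered by line, a bar for the mean and an error bar for the SD over 3 lines. Tcf7l1, Nkd1 and Lgr5 lie higher in every TPS line, Notum and Rnf43 lower, and the other 5 overlap.

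TCF/LEF factors bind the target sites and, as Tcf7 and Lef1 do, are themselves targets. Tcf7l1 (ENSMUSG00000055799, chr6:72626378-72789254, GRCm38), which encodes the member of the family best known as a repressor in embryonic stem cells, had 33.3, 49.0 and 44.8 CPM in EPS lines 1 to 3 and 84.5, 64.3 and 68.7 CPM in TPS lines. Every TPS line was above every EPS line, and the lines of a group were alike, with a highest-to-lowest ratio of 1.47 in EPS and 1.32 in TPS. The mean was 42.4 ± 8.10 CPM in EPS and 72.5 ± 10.7 CPM in TPS (SD, n = 3 each), and the log2 fold change was 0.77 ± 0.19 (SE; adjusted p = 0.0255, edgeR), with a 95% interval of 0.34 to 1.21. The call was lost without EPS line 1 (adjusted p = 0.0578), EPS line 3 (0.0549), TPS line 1 (0.0799) or TPS line 3 (0.0623), while the log2 fold change stayed between 0.60 and 0.87 without any 1 line.

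Tcf7 (ENSMUSG00000000782, chr11:52252371-52283014), whose product TCF1 pairs with beta-catenin as an activator, had 96.4, 140 and 94.6 CPM in EPS lines and 65.6, 100 and 85.9 CPM in TPS lines. The groups overlapped through TPS line 2. The log2 fold change was -0.39 ± 0.22 (SE; adjusted p = 0.224), with an interval of -0.90 to 0.11, and it was -0.55 (adjusted p = 0.155) without TPS line 2. Lef1 (ENSMUSG00000027985, chr3:131110471-131224356), a second activating factor and a common target, had 15.4, 29.9 and 21.8 CPM in EPS lines and 19.4, 24.5 and 34.03 CPM in TPS lines. These ranges lay over each other, and the log2 fold change was 0.22 ± 0.30 (SE; adjusted p = 0.640), with an interval of -0.47 to 0.90. The technical replicates of EPS line 1 differed for Lef1, at 10.7 and 18.6 CPM, which is the largest such ratio of this gene, 1.74.

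Per kilobase of exon, which allows levels to be compared between genes, Tcf7 was the most abundant factor in both groups, at 42.1 ± 9.84 CPM per kb in EPS and 32.0 ± 6.67 in TPS (SD, n = 3). Tcf7l1 was next, at 10.8 ± 2.06 and 18.5 ± 2.72 CPM per kb. Lef1 was at 2.54 ± 0.825 and 2.96 ± 0.847, and Tcf7l2, the remaining factor of the family, at 0.858 ± 0.164 and 1.10 ± 0.0736 CPM per kb. The share of Tcf7 and Lef1 in the sum of the 4 factors was 80.6%, 80.8% and 76.0% in EPS lines 1 to 3 and 54.5%, 70.2% and 66.2% in TPS lines. Every TPS line was below every EPS line, with means of 79.1% ± 2.71 in EPS and 63.7% ± 8.15 in TPS (SD, n = 3). The exact two-sided permutation test over the 6 lines gave p = 0.1, the smallest value that 3 against 3 lines allow. The share of Tcf7l1 was 17.7% to 22.5% in EPS lines and 28.0% to 43.2% in TPS lines, with the highest value in TPS line 1. This measure uses the Tcf7l1 counts tested above and is not independent of them.

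**Figure D2:**
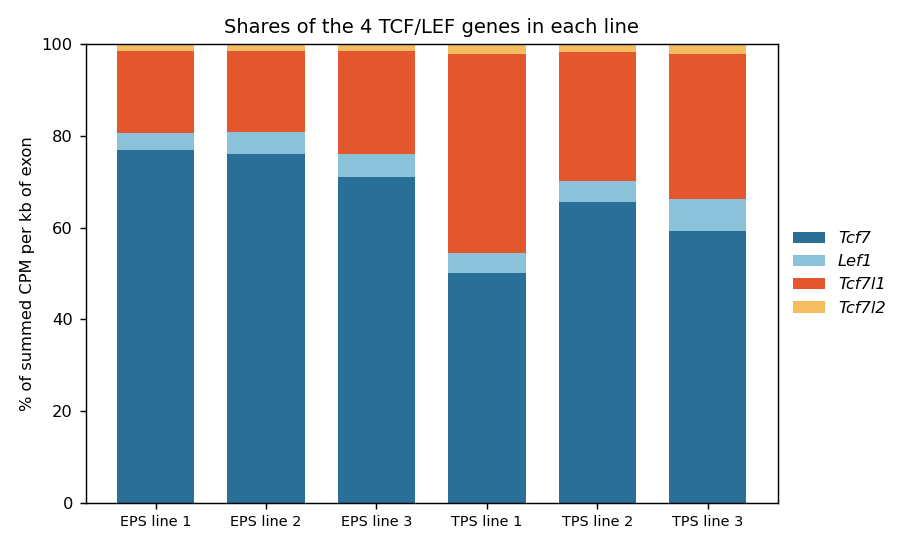
Stacked bars give, for each of the 6 lines, the share in percent of Tcf7, Lef1, Tcf7l1 and Tcf7l2 in their summed CPM per kb of exon. The joint share of Tcf7 and Lef1 is at least 76.0% in EPS lines and at most 70.2% in TPS lines, and Tcf7l1 takes 43.2% in TPS line 1.

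Sp5 (ENSMUSG00000075304, chr2:70474923-70477729), a zinc finger transcription factor induced by beta-catenin that represses other targets, split the TPS lines. It had 14.4, 21.3 and 14.4 CPM in EPS lines 1 to 3 and 5.25, 23.5 and 25.2 CPM in TPS lines. TPS line 1 was the lowest of all 6 lines and TPS lines 2 and 3 the highest, so that the ratio of the highest to the lowest TPS line was 4.797, against 1.48 in EPS lines. Over all tested genes with a mean of at least 10 counts, the median ratio was 1.40 in TPS lines and 1.495 in EPS lines. The technical replicates of TPS line 1, at 5.67 and 4.96 CPM, agreed on its low level. The log2 fold change was 0.10 ± 0.52 (SE; adjusted p = 0.905), with a wide interval of -1.10 to 1.31. It took the opposite sign without EPS line 1, EPS line 3, TPS line 2 or TPS line 3, with -0.22 at the lowest and, without TPS line 1, 0.54 at the highest.

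Of the cytoplasmic feedback genes, Nkd1 passed the test and Axin2 did not. Axin2 (ENSMUSG00000000142, chr11:108920349-108950783), a scaffold of the destruction complex and the usual readout of the pathway, had 52.0, 50.9 and 84.8 CPM in EPS lines and 32.1, 46.8 and 54.5 CPM in TPS lines. TPS line 1 was lowest and EPS line 3 highest, and TPS line 3 lay above EPS lines 1 and 2. The mean was 62.5 ± 19.3 CPM in EPS and 44.4 ± 11.4 CPM in TPS (SD, n = 3), and the log2 fold change was -0.49 ± 0.27 (SE; adjusted p = 0.220), with an interval of -1.11 to 0.13. Without EPS line 3 it was -0.22. Its constitutive counterpart Axin1 was the more abundant scaffold per kb of exon, with 64.2% to 76.2% of the sum of both in EPS lines and 70.9% to 79.3% in TPS lines.

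Nkd1 (ENSMUSG00000031661, chr8:88521354-88594884), which encodes a Dishevelled-binding inhibitor of the pathway, had 2.19, 2.03 and 2.31 CPM in EPS lines and 4.02, 20.0 and 6.04 CPM in TPS lines. Every TPS line was above the EPS lines, and TPS line 2, the line with high Krt8 and Krt18, was far above the other two. The EPS lines were closer to each other than technical replicates were, since those of EPS line 2 had 2.83 and 1.37 CPM. The means were 2.17 ± 0.138 CPM in EPS and 10.02 ± 8.70 CPM in TPS (SD, n = 3), and the log2 fold change was 2.20 ± 0.59 (SE; adjusted p = 0.0357), with an interval of 0.83 to 3.58. Without TPS line 2 the log2 fold change was 1.203 and the call was lost (adjusted p = 0.0594). The call was also lost without EPS line 1 (0.0951), EPS line 2 (0.10005), EPS line 3 (0.0805) or TPS line 3 (0.0502), and in limma-voom (0.0904). Nkd2, the paralog, moved the same way, with 1.88 to 3.67 CPM in EPS lines and 5.93 to 8.29 CPM in TPS lines and a log2 fold change of 1.48 (adjusted p = 0.0223), a call lost without EPS line 1, EPS line 2, TPS line 1 or TPS line 3 (up to 0.0766).

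Notum (ENSMUSG00000042988, chr11:120653788-120661175) encodes a secreted enzyme that removes the lipid from Wnt ligands. It had 11.1, 38.2 and 9.82 CPM in EPS lines and 7.60, 5.10 and 7.66 CPM in TPS lines. Every TPS line was below every EPS line, and EPS line 2 stood far above the other two. The means were 19.7 ± 16.03 CPM in EPS and 6.79 ± 1.46 CPM in TPS (SD, n = 3), and the log2 fold change of -1.54 ± 0.53 (SE) did not pass in edgeR (adjusted p = 0.0756) but did in DESeq2 (adjusted p = 0.00985). Without EPS line 2 it was -0.64 (adjusted p = 0.171), and without EPS line 3 it was -1.88 and passed (adjusted p = 0.0488). The antisense gene Notumos covers 29.4% of the exon bases of Notum and held 278 counts over all libraries against 2725 of Notum, and the library protocol describes no strand marking, so reads of both cannot be told apart.

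The surface feedback genes Rnf43 and Znrf3 encode related ubiquitin ligases that remove Frizzled receptors. Rnf43 (ENSMUSG00000034177, chr11:87662722-87735539) had 5.97, 3.38 and 3.84 CPM in EPS lines and 1.42, 3.26 and 1.84 CPM in TPS lines. The groups did not overlap, but EPS line 2 and TPS line 2 were nearly level. The log2 fold change was -1.01 ± 0.42 (SE; adjusted p = 0.121), and it was -1.43 (adjusted p = 0.0599) without TPS line 2 and -0.76 (adjusted p = 0.269) without EPS line 1, whose technical replicates differed, at 3.43 and 7.70 CPM. Znrf3 (ENSMUSG00000041961, chr11:5276324-5444847) had 15.4, 28.8 and 25.4 CPM in EPS lines and 21.5, 25.3 and 27.6 CPM in TPS lines. The TPS lines lay within the EPS range, and the log2 fold change was 0.10 ± 0.25 (SE; adjusted p = 0.813), with an interval of -0.48 to 0.68. Per kb of exon, Znrf3 was the more abundant of both ligases in every line, with 68.2% to 87.6% of their sum in EPS lines and 86.6% to 92.6% in TPS lines.

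Lgr5 (ENSMUSG00000020140, chr10:115450311-115587780), a receptor for R-spondins, the secreted proteins that protect Frizzled receptors from these ligases, is known as a stem cell marker of the gut. It had 3, 1 and 0 counts in EPS lines 1 to 3, the library with most holding 3, and 13, 32 and 15 counts in TPS lines, or 0.325, 0.829 and 0.477 CPM. EPS lines were thus at the floor of 3 counts per library, which is 0.239 CPM where these weigh most. Against that floor the TPS mean of 0.544 ± 0.259 CPM (SD, n = 3) was at least 2.27-fold higher, or 1.67-fold without TPS line 2, and the edgeR test passed (adjusted p = 0.0223). No EPS line reached the cutoff of the filter, so Lgr5 was tested only because TPS lines did, and its place among the 3 called genes rests on that. The lowest TPS library held 2 counts, and the lowest TPS line was 1.36-fold above the floor. The call was lost without EPS line 2 (0.0785), EPS line 3 (0.0510), TPS line 2 (0.0588) or TPS line 3 (0.0561). Lgr4, the paralog that binds the same ligands, made up 97.5% to 99.1% of the 3 R-spondin receptors per kb of exon in EPS lines and 95.1% to 96.2% in TPS lines. It had 58.3, 81.5 and 70.8 CPM in EPS lines and 78.5, 62.9 and 67.4 CPM in TPS lines (log2 fold change -0.01 ± 0.16 SE, adjusted p = 0.967), while Lgr5 was at most 0.719% of the receptors in any line.

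**Figure D3:**
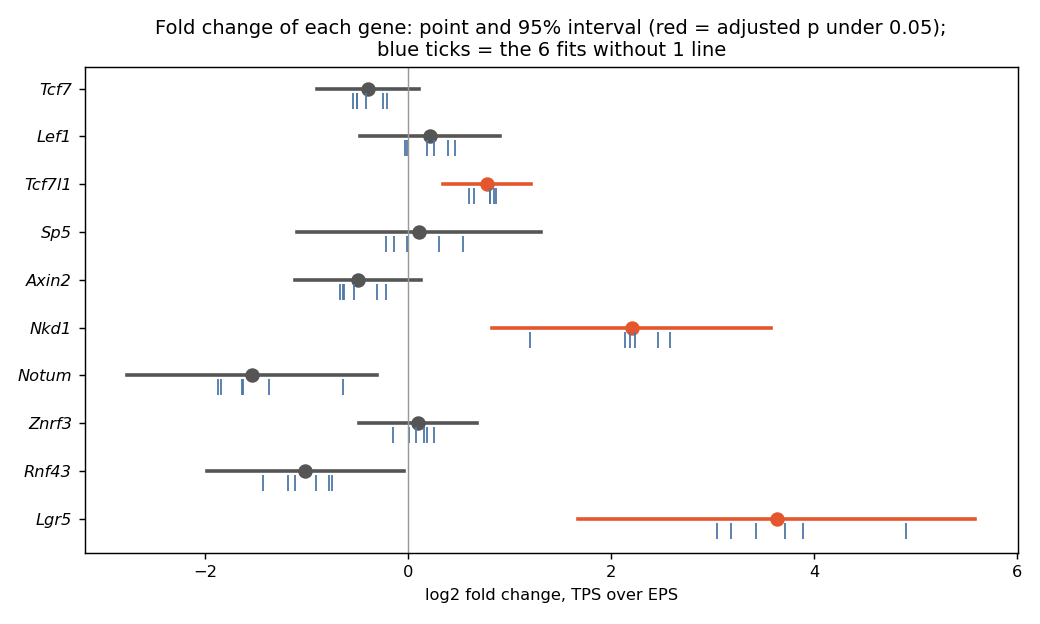
Log2 fold change of TPS over EPS lines for the 10 genes, with points for the edgeR estimate, bars for the 95% interval, red for an adjusted p under 0.05, and blue ticks for the 6 fits without 1 line. The points range from -1.54 for Notum to 2.20 for Nkd1, apart from the point for Lgr5, which lies higher still and, with EPS lines at the floor, depends on the fit's prior count.

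Within the groups the genes did not share 1 order of lines. TPS line 1 was the lowest TPS line for 8 of the 10 genes, Notum and Tcf7l1 being the exceptions, and it was the highest for Tcf7l1. TPS line 1 also had the highest sum of fibroblast markers, 6398 CPM, and the part of this in the low values was not tested. In the EPS group, line 2 was the highest for 6 of the 10 genes, and the lowest line was line 3 for 4 genes and line 1 or line 2 for 3 each. Ranked by CPM per kb of exon, the EPS order was Tcf7, Axin2, Tcf7l1, Notum, Sp5, Znrf3, Lef1, Rnf43, Nkd1 and Lgr5. In that order Axin2, Tcf7l1, Notum and Sp5 overlapped with their neighbours over the lines, as did Znrf3 and Lef1, and the other steps did not overlap. The TPS order was Tcf7, Tcf7l1, Sp5, Axin2, Znrf3, Lef1, Notum, Nkd1, Rnf43 and Lgr5, in which Sp5 overlapped with Axin2 and the genes from Znrf3 to Nkd1 overlapped with their neighbours.

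The genes whose levels over the 6 lines were most like those of Axin2 were Zfp623, A230050P20Rik and Gm9050, with Euclidean distances of 0.278, 0.298 and 0.323 between centred log2(CPM + 1) values, among 17229 genes with a mean of at least 10 counts. The nearest of the other 9 genes was Tcf7, at a distance of 0.978 and rank 4504. Sp5 was at rank 11734 and Nkd1, at 2.84, at rank 16218. Gm9050 was at 0.392, 0.589 and 1.62 CPM in EPS lines and 0.175, 0.466 and 0.826 CPM in TPS lines. At such low levels the added 1 shrinks differences between lines, so its small distance is no sign of like fold changes.

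Of 14 genes of beta-catenin and its destruction complex, the core of the pathway, 1 was higher in TPS lines and 2 lower, next to 14.4% and 7.34% of all genes tested, with a median log2 fold change of -0.06. These counts are near the background and give no result about the group. Ctnnb1, which encodes beta-catenin, had 475 to 541 CPM in EPS lines and 554.7 to 582.8 CPM in TPS lines (log2 fold change 0.16 ± 0.12 SE, adjusted p = 0.370). The GSK3 genes had log2 fold changes of -0.05 (Gsk3a, adjusted p = 0.834) and 0.02 (Gsk3b, adjusted p = 0.925). Apc and Axin1, scaffolds of the complex, were at -0.11 and -0.24 (adjusted p = 0.758 and 0.180). The Dishevelled gene Dvl2 fell by 0.78 on the log2 scale (adjusted p = 0.0131) and Csnk1a1, a kinase of the complex, by 0.61 (adjusted p = 0.0302), while Apc2 rose by 1.13 from low levels (adjusted p = 0.0341). The Apc2 call was lost without any 1 of the 6 lines (adjusted p up to 0.117), and that of Csnk1a1 without EPS line 1, EPS line 2, TPS line 1 or TPS line 3 (up to 0.0950).

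The genes for Wnt ligands and their release that passed the test were all higher in TPS lines. Of 13 Wnt ligand genes tested among 19, 6 were higher and 0 lower (14.4% and 7.34% over all genes), with a median log2 fold change of 2.35, and without 1 line 3 (EPS line 1) to 6 were higher. Of the 13, 5 did not reach the cutoff of the filter, 0.280 CPM, in every EPS line, and 3 of the 6 higher genes (Wnt2b, Wnt4 and Wnt8a) were among them. Genes that pass the filter through TPS lines could hardly be called lower, so the count and the median lean to the higher side; of the other 8, 3 were higher and 0 lower, with a median of 1.77. Wnt8a had 0, 0.383 and 0.854 CPM in EPS lines and 7.55, 14.6 and 46.8 CPM in TPS lines (log2 fold change 5.76 ± 1.10 SE, adjusted p = 0.0119), and Wnt2b rose from at most 0.199 CPM to at least 1.37 CPM (log2 fold change 4.27, adjusted p = 0.00880). Without TPS line 2 the value of Wnt2b was 3.29, and that of Wnt8a was 4.71 without TPS line 3 and 6.83 without EPS line 3. Porcn and Wls, which lipidate and carry Wnt ligands, rose by 1.96 and 1.92 on the log2 scale (adjusted p = 0.00446 and 0.00593), from 12.1 to 16.5 CPM in EPS lines to 35.8 to 71.8 CPM in TPS lines for Porcn. All 4 calls held without any 1 line. Wnt2b reached the cutoff of the filter in 0 EPS lines and was tested only because TPS lines did. The sum of the fibroblast markers was also higher in TPS lines, at 6398, 3532 and 3736 CPM in lines 1 to 3. Wnt8a, Wnt2b and Porcn were lowest in TPS line 1, and Wls, at 88.0, 129 and 71.6 CPM, was lowest in TPS line 3. The part of fibroblast RNA in the values of these genes was not tested.

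Of 15 receptor and coreceptor genes, 3 were higher and 2 lower (14.4% and 7.34% over all genes), with a median of 0.39, and without 1 line 0 to 2 were higher and 1 to 2 lower. The count of higher genes was 5 with upper quartile factors, 6 with library size alone and 7 in DESeq2 or with the libraries apart, and 7 genes had every TPS line above every EPS line (23.6% over all genes). Fzd5 had 171, 110 and 136 CPM in EPS lines and 41.9, 40.7 and 35.2 CPM in TPS lines (log2 fold change -1.82 ± 0.19 SE, adjusted p = 0.00197), a call that held without any 1 line. Lrp5 was lower by 0.81 (adjusted p = 0.0231), a call lost without EPS line 1, EPS line 2, TPS line 1 or TPS line 3 (up to 0.0766), and Lrp6 was at 0.0067 (adjusted p = 0.981). Fzd1 and Fzd2 rose by 2.20 and 2.21 on the log2 scale (adjusted p = 0.0301 and 0.0252), calls that were lost without EPS line 3 or TPS line 2 and, for Fzd1, TPS line 1 or, for Fzd2, TPS line 3 (up to 0.0815), and without EPS line 2 the value of Fzd1 was 2.91. Of 5 R-spondins and receptors tested beside Lgr5, 1 was higher and 0 lower, where 14.4% and 7.34% of all genes were. The higher gene was Lgr6, at 0.740 to 1.66 CPM in EPS lines and 2.80 to 3.65 CPM in TPS lines (log2 fold change 1.48, adjusted p = 0.0339). That call was kept only without EPS line 1 (other fits up to 0.0940).

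Of 14 secreted and membrane antagonists tested, 8 were higher and 1 lower (14.4% and 7.34% over all genes), with a median of 1.58, or 1.196 with the 2 genes at the floor taken at their bounds, and without 1 line 4 to 7 were higher. Here too 5 of the 14 genes were below 0.280 CPM in some EPS line, 4 of them among the 8 higher genes (Dkk1, Dkk4, Sfrp5 and Wif1). Of the other 9, 4 were higher and 1 lower, with a median of 0.66, and with a filter at 1 CPM in 3 lines 5 of 11 genes tested were higher. The most abundant of them in EPS lines, Sfrp1, which encodes a secreted Wnt-binding protein, was the lower gene, with 185, 265 and 180 CPM in EPS lines and 18.8, 34.2 and 35.7 CPM in TPS lines (log2 fold change -2.83 ± 0.29 SE, adjusted p = 0.00194). Dkk1, a target that blocks LRP coreceptors, was at the floor in EPS lines and at least 10.3-fold higher in TPS lines, at 0.949, 4.198 and 2.22 CPM (adjusted p = 0.00453), or at least 6.63-fold without TPS line 2. Wif1, whose product binds Wnt ligands, rose by 3.85 on the log2 scale (adjusted p = 0.0138), and by 4.98 without EPS line 1. The calls of these 3 genes held without any 1 line. Dkk1 and Wif1, like Dkk4, reached the cutoff of the filter in 0 EPS lines and were tested only because TPS lines did. They could hardly be called lower.

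Of 13 partners of the TCF/LEF factors, 3 were higher and 1 lower, where 14.4% and 7.34% of all genes were, with a median of 0.29. Without 1 line, 1 to 3 were higher, with 3 only without EPS line 2, and 0 to 1 lower. Tcf7l2 was at 0.36 (adjusted p = 0.301). Corepressor genes were called in both directions, Tle3 lower by 0.89 (adjusted p = 0.0199) and Tle1 higher by 0.66 (adjusted p = 0.0346), and the coactivator genes Pygo1 and Bcl9l were higher by 1.82 and 0.71 (adjusted p = 0.00636 and 0.0387). The Pygo1 call held without any 1 line, those of Bcl9l and Tle1 held only without EPS line 2 (other fits up to 0.112 and 0.0972), and that of Tle3 was lost without EPS line 1, EPS line 2, TPS line 1 or TPS line 3 (up to 0.0621).

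Other targets of beta-catenin, listed by name and known mostly from embryonic tissues, were called in 1 direction. Of 19 tested, 12 were higher and 0 lower (14.4% and 7.34% over all genes), Dkk1 and Apcdd1 being among the higher antagonists as well, with a median log2 fold change of 1.55, and without 1 line 6 (EPS line 2) to 11 were higher. Of the 19, 5 were below 0.280 CPM in some EPS line, 4 of them among the 12 higher genes (Cdx2, Sox9, Msx2 and Dkk1). Msx2 and Dkk1 reached it in 0 EPS lines and were tested only because TPS lines did. As with the ligands, such genes could hardly be called lower. Of the other 14, 8 were higher and 0 lower, with a median of 1.51. Cdx1, a homeobox gene of the posterior embryo, had 7.44, 8.33 and 11.6 CPM in EPS lines and 28.0, 81.3 and 100.1 CPM in TPS lines (log2 fold change 2.93, adjusted p = 0.00632). Msx2, another homeobox gene, had at most 0.256 CPM in EPS lines and 1.599, 14.1 and 3.78 CPM in TPS lines (log2 fold change 5.51 ± 0.99 SE, adjusted p = 0.00961), with the highest value in TPS line 2, as for Nkd1. Without TPS line 2 its log2 fold change was 4.24, and without EPS line 3 it was 6.32. The streak gene T was like Sp5, at 1.95, 17.0 and 29.6 CPM in TPS lines 1 to 3 where EPS lines ranged from 6.80 to 10.5 CPM (adjusted p = 0.407). Ccnd1 was at 103 to 169 CPM in EPS lines and 113 to 149 CPM in TPS lines (adjusted p = 0.818). Cdx1, T, Ccnd1 and Col4a1, like Tle1 and the markers Krt8, Krt18 and Col1a1, were picked after their values were seen. Fibroblasts are known to express some of the genes on this list. Markers of other lineages were looked at beside it. Of 7 primitive streak and mesoderm markers tested, T among them, 1 was higher and 0 lower (14.4% and 7.34% over all genes). This count is near the background and gives no result about these markers. Their sums were 22.9 to 31.1 CPM in EPS lines and 13.7 to 49.5 CPM in TPS lines. The higher gene was Evx1, at 0.326, 0.235 and 0.512 CPM in EPS lines and 0.700, 1.995 and 1.14 CPM in TPS lines (adjusted p = 0.0472), a call lost without any line other than TPS line 1. Of 8 primitive endoderm markers 4 were higher and 1, Lama1, was lower (14.4% and 7.34% over all genes). Among the higher were Gata6, the collagen gene Col4a1 and Sox17, which reached 0.280 CPM in 2 EPS lines only. Of the 6 markers that reached it in every EPS line, 3 were higher and 1 lower. Col4a1 carried the sum of the 8 markers, which was 208 to 216 CPM in EPS lines and 363 to 445 CPM in TPS lines. Without it the sum was 126 to 187 CPM and 86.3 to 90.6 CPM. Of 7 trophectoderm markers tested, 2 were higher and 0 lower (14.4% and 7.34% over all genes). These were Gata3 and Cdx2, which is also 1 of the 12 targets called higher, and neither was called without EPS line 2 or TPS line 2. Both reached 0.280 CPM in 1 EPS line and in 3 TPS lines, and 0 of the 5 markers that reached it in every EPS line were called. The sums of the 7 markers were 104 to 188 CPM in EPS lines and 141 to 626 CPM in TPS lines. The highest, that of TPS line 2, was carried by Krt8 (243 CPM) and Krt18 (198 CPM). The part of these cells in the values was not tested.

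Tcf7l1 is known to repress a set of pluripotency genes in embryonic stem cells. Of 6 such genes, 3 were lower in TPS lines and 0 higher (7.34% and 14.4% over all genes), with a median log2 fold change of -0.72, and without 1 line 2 to 3 were lower. Tfcp2l1 had 898, 760 and 734 CPM in EPS lines and 287, 179 and 211 CPM in TPS lines (log2 fold change -1.82 ± 0.20 SE, adjusted p = 0.00239). Esrrb fell from 1021, 858 and 845 CPM to 337, 329 and 395 CPM (log2 fold change -1.36 ± 0.14 SE, adjusted p = 0.00219). The calls of both genes held without any 1 line. A list of 6 pluripotency markers, which shares Esrrb and Nanog with this one, had 3 lower and 0 higher (7.34% and 14.4% over all genes), Esrrb being counted in both. Of these Klf4, which is not on the TCF7L1 list, had 775, 831 and 468 CPM in EPS lines and 90.7, 116 and 122 CPM in TPS lines (log2 fold change -2.66). Whether the level of Tcf7l1 bears on any of these genes was not tested.

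**Figure D4:**
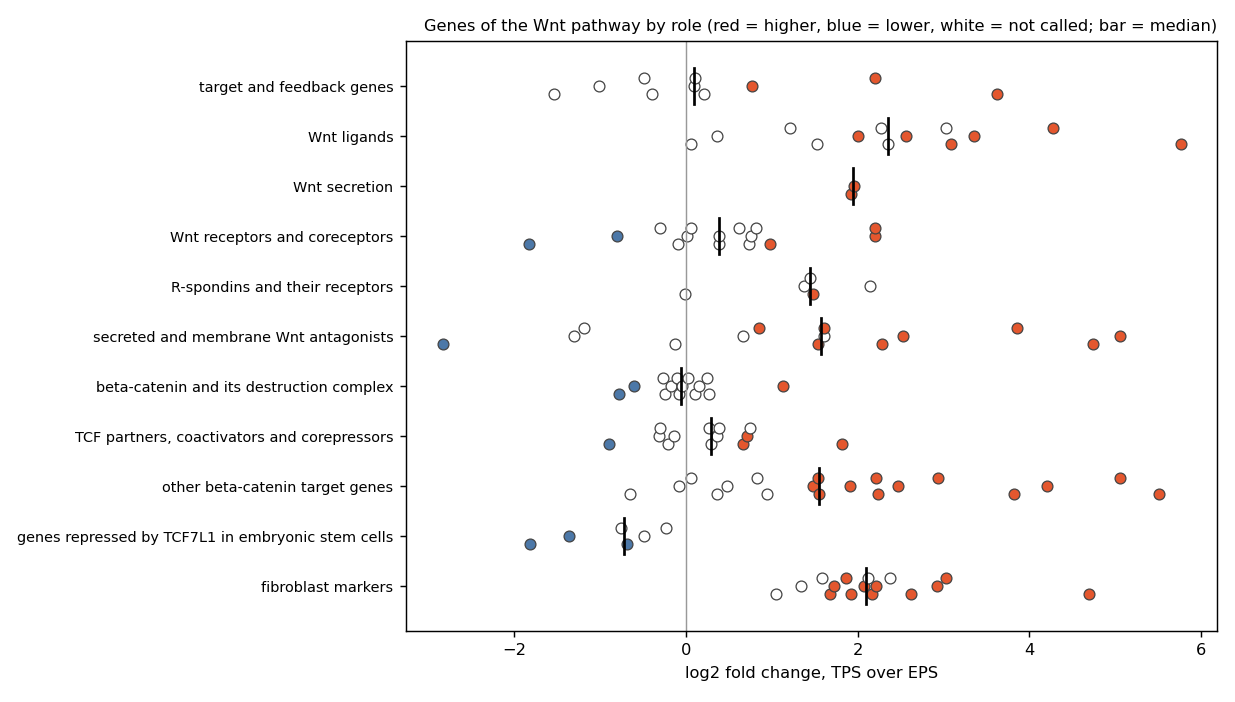
Log2 fold change of TPS over EPS lines for each tested gene (points) of 11 lists on the vertical axis, in red where higher, blue where lower and white where not called, with a black bar for the list's median. Medians run from -0.72 for genes repressed by TCF7L1 to 2.35 for Wnt ligands, and the points of Lgr5, Dkk1 and Dkk4, at the floor in EPS lines, depend on the fit's prior count.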

How the data were processed

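Poly(A) RNA was captured on oligo(dT) beads, and paired ends were read. The authors trimmed reads with fastp 0.19.7, mapped them with STAR 2.7.3a to mm10 (per the labels and the submitters' processing notes), and deposited raw counts of reads per gene. The counting tool, annotation release, use of strand and handling of multiply mapped reads are not given in the sources used here. Of 55401 identifiers, 55141 matched GENCODE M21 after the version was removed.

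Libraries were assigned to groups and lines by their titles, and the counts of the 2 technical replicates were summed, which differed by more than sampling noise (chi-square per degree of freedom 2.58 to 22.3). Lines were compared, 3 against 3, with edgeR 4.0.16 (R 4.3.3; TMM factors, filterByExpr with 10 and 15 counts, quasi-likelihood test, Benjamini-Hochberg adjustment over 17468 genes, threshold 0.05). The standard error was the log2 fold change over the square root of F. CPM used TMM-scaled library sizes, and lengths were the union of a gene's exons. A gene was at the floor of a group when none of its libraries held over 3 counts. Floors cover counting error only, because PCR copies could not be removed by molecular identifiers. The test was checked on simulated data. Named were the 10 genes, from each list up to 2 called higher and 2 called lower with the largest change, lines that did not overlap and a mean of at least 10 counts, 9 core genes (Ctnnb1, Gsk3a, Gsk3b, Apc, Axin1, Tcf7l2, Lgr4, Lrp5, Lrp6), and the 3 genes nearest to Axin2. Nkd2 and the other paralogs were added for shares within families, as were a few genes that the text names as picked after their values were seen and genes named only to say which members of a list a count holds. The members and lists were chosen with earlier results of these data known. No member had another gene's transcript at least 95% identical over 50% of its length (blastn 2.17.0). Alternatives were DESeq2 1.42.0, limma-voom 3.58.1, other scalings and filters, the libraries apart, either technical replicate, the line number as a block and leaving out each line.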

Additional observations from a re-analysis of the deposited data

How the results depend on the processing

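Of the 10 genes, 3 were called. Fitting the 12 libraries as separate samples, which treats technical replicates as lines, gave 5 calls among the 9 genes tested, 2 higher and 3 lower, technical replicate 1 alone gave 1, and the line number as a replicate block gave 0, with adjusted p of 0.0706 for Tcf7l1, 0.0780 for Nkd1 and 0.0644 for Lgr5. The deviations of same-numbered lines from their group means had correlations of 0.024, -0.116 and 0.0423, and those of other pairs ranged from -0.244 to 0.231. Deviations from a mean of 3 lines depend on each other, so these values cannot show whether same-numbered lines are related. The labels do not say either, and the main fit did not pair the lines. Without 1 line, the count of calls was 0 to 2. Library size alone moved the median of all genes to 0.14 and the share of calls that were higher to 80.04%, against 66.18%; without TPS line 1, 2 or 3 that share was 74.1%, 74.4% and 76.6%, and with the libraries apart 53.0%. The 3 called genes and the 2 with non-overlapping lower values kept their sign in every fit that tested them, but Lgr5 was filtered out in 4 alternatives. The count of calls differed from 3 under 14 of 17 alternatives, by over 1.5 times under 8. Of 840 fold changes of named genes, 713 kept their direction and call, 88 lost the call, 9 gained it and 30 changed sign. The signs that changed were these. Sp5 was -0.21 in limma-voom and -0.15 with the block, and -0.22 to 0.54 without 1 line. Lef1 was -0.031 to 0.46 and Znrf3 -0.15 to 0.26 without 1 line. Lgr4 was 0.13 with library size alone, 0.040 with upper quartile factors, 0.017 with a CPM filter, 0.0079 with the libraries apart and 0.038 with technical replicate 1. Gsk3a was 0.10 with library size alone and 0.0070 with upper quartile factors, Apc 0.032 with library size alone, and without a filter Gsk3b was -0.0062 and Lrp6 -0.024. Without 1 line, Lgr4 was -0.16 to 0.086, Gsk3a -0.15 to 0.041, Gsk3b -0.13 to 0.086, Apc -0.31 to 0.016 and Lrp6 -0.16 to 0.078. The share of Tcf7 and Lef1 differed by -15.5 percentage points (TPS minus EPS) and kept that direction in all alternatives, at -18.7 to -10.9 without 1 line. The cause of these shifts was not tested. With 3 lines a group, fits without a line have fewer samples. Lgr5 rests on 0 to 3 counts in EPS libraries and 2 to 21 in TPS libraries.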
